A study of Mus musculus with 6 samples.

Results

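The proteasome genes of the mouse heart were described in 9-month-old GRK2+/- mice and their wild-type (WT) littermates. Every gene whose symbol is Psma, Psmb, Psmc, Psmd, Psme, Psmf or Psmg followed by a number was taken, which gave 47 of the 18193 named genes on the array. These genes had 100 probe sets with 1 symbol each, and the brightest probe set of each gene, on average over all 6 hearts, stood for it. The gene for the second subunit of the interferon-induced activator, Psme2, could not be read, because its probe set was annotated to several symbols. GRK2+/- mice carry 1 copy of the targeted allele Adrbk1tm1Mca, bred for more than 20 generations onto C57BL/6J. The allele disrupts Grk2, a kinase that turns down signalling by G protein-coupled receptors, the beta-adrenergic ones of the heart among them. The WT mice are C57BL/6J, and the allele is a germline one, so all cell types of the heart carry it. Each group held 3 hearts, arrested in diastole under isoflurane, with total RNA of the upper part of each heart on 1 Affymetrix array. The labels give neither sex nor which mice shared a litter.

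The proteasome is the protease that destroys proteins tagged with ubiquitin, and in heart muscle it removes worn and misfolded sarcomere and signalling proteins. Its barrel, the 20S core, is built of outer alpha rings and inner beta rings, and Psmb5, Psmb6 and Psmb7 are the beta subunits that cut. The 19S cap recognises ubiquitin, unfolds the protein with a ring of ATPases (Psmc genes) and feeds it into the barrel, with the Psmd genes supplying the receptors, the lid and its deubiquitinase. Interferon and inflammation induce Psmb8, Psmb9 and Psmb10, which replace the cutting subunits to form the immunoproteasome. Dedicated chaperones assemble both parts, and the transcription factor NRF1 (Nfe2l1) is known to raise nearly all subunit genes when proteasome activity is short.

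Values are the authors' log2 RMA expression values, with array medians from 6.26 to 6.31. Defining cardiomyocyte genes were near the top of the scale in every heart (Myh6 from 14.79 to 14.91). Of the atrial genes, Sln and Myl7 read between 5.49 and 5.81, below the median gene (7.24), Myl4 between 7.03 and 7.27, near it, and Nppa between 9.56 and 11.62. Of 14 cardiomyocyte markers, 1 was lower (7.7% of all genes) and 1 higher (6.3%) at an unadjusted p under 0.05. These were Nppa, the atrial natriuretic peptide (-1.20 ± 0.27), and Ryr2, the calcium release channel (0.35 ± 0.077). Both were without overlap (adjusted p = 0.15 and 0.14), as were 11.6% of all genes on the lower and 7.44% on the higher side. The mean over leukocyte markers was not level between the groups. Over 23 measured markers, relative to the WT mean, it was 0.068, 0.23 and 0.29 in GRK2+/- hearts 1, 2 and 3. In WT hearts 1, 2 and 3 it was 0.067, 0.039 and -0.11. The myeloid genes S100a9 (2.25 ± 0.33) and S100a8 (1.97 ± 0.29) carried most of that difference (adjusted p = 0.0762 and 0.08). Over the other 21 markers, a summary added after these values were seen, the means were -0.048, 0.034 and 0.065 in GRK2+/- hearts and 0.062, 0.017 and -0.079 in WT hearts, with 11 genes above 0 and 10 below. At an unadjusted p under 0.05, 5 of the 23 were higher (6.3% of all genes) and 2 lower (7.7%). The endothelial mean over 10 genes ranged from 0.049 to 0.20 in GRK2+/- and from -0.12 to 0.076 in WT hearts, and the fibroblast mean over 10 genes from 0.021 to 0.19 and from -0.085 to 0.11. A sign of RNA integrity, the signal of the beta-actin control's 3′ end minus that of its 5′ end, was 0.98 ± 0.080 in GRK2+/- and 0.78 ± 0.036 in WT hearts (SD, n = 3 each). The shift was 0.20 for beta-actin, 0.025 for Gapdh and 0.021 for pyruvate carboxylase. The part of these differences in the results below was not tested. No probe set of the annotation names Grk2, so the genotype labels were not checked by their gene.

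Proteasome transcripts differed little between GRK2+/- and WT hearts. Differences are GRK2+/- minus WT on the log2 scale, with limma's standard error (SE) and n = 3 hearts per group. With limma and Benjamini-Hochberg adjustment over all genes, 0 of 47 members had an adjusted p under 0.05, as did 0 of all 18193 genes (0%); the smallest adjusted p of a member was 0.242. At an unadjusted p under 0.05, 5 members were lower in GRK2+/- hearts (10.6%, against 7.7% of all genes and 7.02% of those at or above the median level) and 0 were higher (against 6.3% of all genes). The 5 were Psmd9, Psmd8, Psmd7, Psmb10 and Psmb2. The largest difference of any member was 1.2-fold, and 30 of the 47 differed by less than 0.1 on the log2 scale. In whole tissue, fewer cells of a type and less RNA per cell cannot be told apart.

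The small differences lay mostly on one side. The median difference of the 47 genes was -0.051, against -0.019 for all genes, and 34 members (72.3%) were below 0 and 13 above, against 56.5% of all genes below 0. The members are bright: 45 of 47 lay at or above the median level of the gene table, and among all genes at or above that level the median difference was 0.0084 and 47.4% were below 0. Groups did not overlap for 10 members that were lower in GRK2+/- hearts (21.3%, against 11.6% of all genes and 10.3% of those at or above the median level) and for 0 that were higher (against 7.44% of all genes). With every array's median set to the same value (centring), 31 members were below 0 (46.4% of all genes), 7 were lower without overlap (7.68%) and 1, Psmd9, was lower at an unadjusted p under 0.05 (4.89%). As deposited, the count lower at an unadjusted p under 0.05 was 3 of 47 without GRK2+/- heart 2 (5.63% of all genes), 1 without GRK2+/- heart 3 (6.73%), 1 without WT heart 1 (8.85%) and 2 without WT heart 3 (4.96%). The median of the members was -0.028 without GRK2+/- heart 1 (-0.014 for all genes) and -0.027 without WT heart 1 (-0.018 for all genes). Below 0 were 28 of 47 members without WT heart 1 (55.2% of all genes). With any other heart left out, 34 to 39 were below 0 (54.3% to 57.7% of all genes). Without WT heart 2, 21 of 47 were lower without overlap (18.9% of all genes), and without GRK2+/- heart 1, 6 were higher without overlap (16.1%); with 3 hearts against 2, groups that do not overlap are more common for all genes.

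The hearts gave narrow intervals for most members. The 95% interval of the difference had a median half-width of 0.16, and for 36 members it lay within 0.3 on either side of 0, a bound of 1.23-fold. For the other 11, among them Psmb8, Psmb9, Psmb10, Psmd9 and Psma8, the interval reached past that bound. The typical within-group SD was 0.060 for members, 0.099 for all genes and 0.093 for genes at or above the median level.

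**Figure D1:**
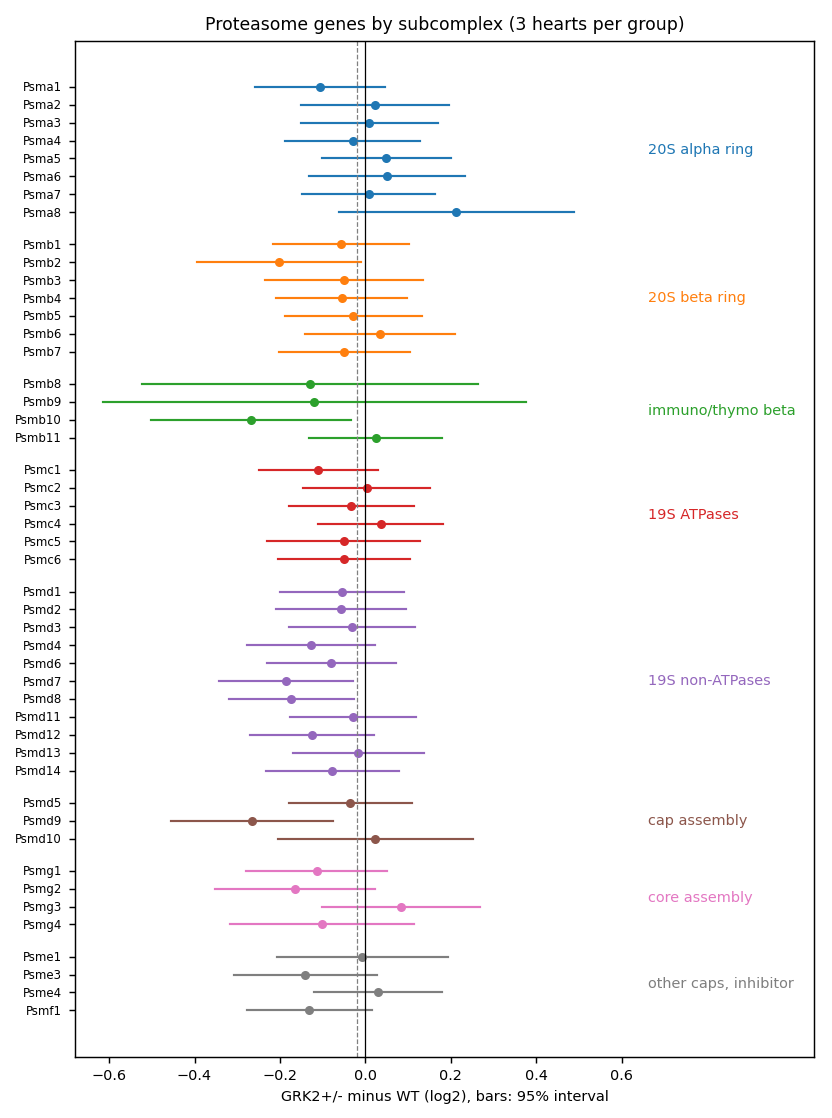
Difference between GRK2+/- and WT hearts (log2, horizontal axis) for each of the 47 proteasome genes, grouped by subcomplex; points are limma estimates, bars 95% intervals, the dashed line the median of all genes (-0.019). Most intervals cross 0, and those of Psmd9, Psmd8, Psmd7, Psmb10 and Psmb2 lie below it.

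Promoter sequence from RefSeq (GRCm38.p6) is shown for some of the members. These are Psmd9 and Psmd8, which had the smallest p of all members, and the constitutive and inducible cutting subunits Psmb5, Psmb6, Psmb8 and Psmb9. Those of Psmd7, Psmb10 and Psmb2, also lower at an unadjusted p under 0.05, are not shown. The 120 bases before the annotated start are shown 5′ to 3′ on the gene's strand. Capitals mark a match to 1 of 3 motifs searched on both strands of windows from 250 bases before to 50 after the start. These were TGACNNNGC, the core of the antioxidant response element that NRF1 and NRF2 bind, GAAA followed by any 2 bases and GAAA again, the core of the interferon-stimulated response element, and TTCNNNGAA, the gamma-activated site.
Psmd9 (chr5:123228070-123228189, plus strand): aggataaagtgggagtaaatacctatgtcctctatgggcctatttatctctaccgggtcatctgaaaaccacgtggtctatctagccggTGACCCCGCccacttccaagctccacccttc
Psmd8 (chr7:29180674-29180793, minus strand): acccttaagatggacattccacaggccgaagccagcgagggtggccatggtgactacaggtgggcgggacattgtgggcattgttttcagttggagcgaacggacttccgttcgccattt
Psmb5 (chr14:54617996-54618115, minus strand): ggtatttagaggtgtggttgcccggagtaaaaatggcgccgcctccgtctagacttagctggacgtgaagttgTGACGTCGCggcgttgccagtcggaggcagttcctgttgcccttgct
Psmb6 (chr11:70525237-70525356, plus strand): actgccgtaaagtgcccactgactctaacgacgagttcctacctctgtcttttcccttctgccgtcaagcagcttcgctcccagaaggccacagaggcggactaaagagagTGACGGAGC
Psmb8 (chr17:34198075-34198194, plus strand): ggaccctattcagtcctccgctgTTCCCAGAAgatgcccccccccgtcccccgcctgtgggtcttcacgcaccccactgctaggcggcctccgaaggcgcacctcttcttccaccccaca
Psmb9 (chr17:34187331-34187450, minus strand): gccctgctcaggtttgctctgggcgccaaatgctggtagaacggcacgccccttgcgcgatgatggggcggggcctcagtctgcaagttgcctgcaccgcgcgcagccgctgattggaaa

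Psmd9 held the antioxidant core 31 bases before its start, Psmb5 47 bases and Psmb6 9 bases before theirs, and Psmb8 held the gamma-activated letters 97 bases before its start. The windows of Psmd8 and Psmb9 held none of the 3, and Psmd9 also held the interferon core 159 bases before its start, outside the stretch shown. The starts of Psmb9 and Tap1 lie 225 bases apart on opposite strands. Of the 47 members, 39 matched a promoter in the table, with 41 windows. The antioxidant core was in 6 of the 41 (14.6%, against 12.4% of all 32851 windows), the interferon core in 5 (12.2%, against 3.44%) and the gamma-activated letters in 3 (7.32%, against 8.30%). The 5 genes with the interferon core were Psmb3, Psmd4, Psmd9, Psme1 and Psmg4. Of these, Psmd9 and Psmd4 were lower in GRK2+/- hearts without overlap, as were 21.3% of all members and 11.6% of all genes, and the other 3 overlapped. With 5 genes, no link between the motif and the differences can be read from this. A match is a description of letters, not of binding.

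With the brightest probe set of each gene and all 6 hearts, the alpha ring, which forms the gate of the barrel, had the most members above 0. Of its 8 genes 6 were above 0, with a median of 0.016 and a range from -0.11 to 0.21, and 0 passed an unadjusted p of 0.05. Psma5 read 11.43, 11.56 and 11.53 in the GRK2+/- hearts and 11.48, 11.46 and 11.43 in the WT hearts, a difference of 0.049 ± 0.068 (adjusted p = 0.776). For Psma6 the values were 11.98, 12.24 and 12.15 in the GRK2+/- hearts and 12.06, 12.03 and 12.14 in the WT hearts, a difference of 0.050 ± 0.082 (adjusted p = 0.815). In both genes GRK2+/- heart 1 was the lowest of the 6 and GRK2+/- heart 2 the highest. The opposite side held Psma1, at 10.65, 10.73 and 10.75 against 10.79, 10.77 and 10.88, a difference of -0.11 ± 0.068 (adjusted p = 0.504) and the 1 alpha gene without overlap between groups. Psma8, the alpha subunit that replaces Psma7 in the testis, lay below the median gene and read 5.97, 6.09 and 5.69 in the GRK2+/- hearts and 5.48, 5.76 and 5.87 in the WT hearts. Its difference of 0.21 ± 0.12 was the highest of all members, with overlapping groups (adjusted p = 0.46). It was 0.32 without GRK2+/- heart 3, the 1 setting in which a member was higher at an unadjusted p under 0.05. The ring's median was 0.075 without GRK2+/- heart 1. Without GRK2+/- heart 2 it was -0.012, with 6 of 8 genes below 0. When all probe sets of each gene were averaged, 5 of 8 were below 0, with a median of -0.019. The other probe sets gave -0.064 and 0.13 for Psma5, -0.025, -0.034 and -0.055 for Psma6, and -0.079 for Psma7. The remaining members Psma2, Psma3, Psma4 and Psma7 differed by -0.030 to 0.023.

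In the constitutive beta ring 6 of 7 genes were below 0 (56.5% of all genes), with a median of -0.051, and 0 were without overlap. After centring 5 of 7 were below 0 (46.4% of all genes), with a median of -0.022. Psmb2, a structural beta subunit, had the smallest p of the ring and read 10.84, 10.63 and 10.72 in the GRK2+/- hearts and 11.01, 10.80 and 10.99 in the WT hearts. GRK2+/- heart 1 lay above WT heart 2, so the groups overlapped, and the difference was -0.20 ± 0.086 (1.15-fold lower; adjusted p = 0.338). Psmb5, with chymotrypsin-like activity, read 11.56, 11.53 and 11.59 in the GRK2+/- hearts and 11.68, 11.50 and 11.59 in the WT hearts (difference -0.028 ± 0.071, adjusted p = 0.89). Psmb6, with caspase-like activity, read 11.47, 11.50 and 11.58 in the GRK2+/- hearts and 11.53, 11.35 and 11.57 in the WT hearts (difference 0.035 ± 0.078, adjusted p = 0.875). Psmb7, with trypsin-like activity, read 12.60, 12.50 and 12.55 in the GRK2+/- hearts and 12.65, 12.53 and 12.62 in the WT hearts (difference -0.050 ± 0.069, adjusted p = 0.774). All 3 overlapped between groups, and their intervals were -0.19 to 0.13, -0.14 to 0.21 and -0.20 to 0.10. Psmb5 changed sign to 0.00073 after centring. Psmb1, Psmb3 and Psmb4 differed by -0.057, -0.051 and -0.056, again with overlap. The other probe set of Psmb4, also bright (mean 11.34), was higher in GRK2+/- hearts without overlap (0.15 ± 0.069). That of Psmb3 gave -0.11, and the dimmer ones of Psmb1 (means 7.10 and 6.75) gave -0.30 and 0.048. When all probe sets of each gene were averaged, 5 of 7 genes in this ring were below 0.

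Most genes of the 19S cap were below 0, as in the constitutive beta ring. Of its 17 genes 15 were below 0, with a median of -0.055 (56.5% of all genes below 0, and 47.4% of those at or above the median level). Lower without overlap were 6 (11.6% and 10.3%). Of the 11 non-ATPase subunits, all were below 0 as deposited, with a median of -0.078, and 5 were lower without overlap, while 2 passed an unadjusted p of 0.05 (7.7% of all genes lower) and 0 the adjusted threshold. After centring these counts were 4 without overlap (7.68% of all genes) and 0 at an unadjusted p under 0.05 (4.89%). Psmd8, a lid subunit, read 10.84, 10.86 and 10.83 in the GRK2+/- hearts and 11.04, 10.96 and 11.05 in the WT hearts, so every GRK2+/- heart lay below every WT heart; the difference was -0.17 ± 0.065 (1.13-fold lower; adjusted p = 0.293). Psmd7, the lid partner of the deubiquitinase Psmd14, read 10.09, 9.99 and 10.00 in the GRK2+/- hearts and 10.29, 10.17 and 10.18 in the WT hearts. These groups too did not overlap (difference -0.19 ± 0.070, adjusted p = 0.295). All 3 probe sets of the gene were below 0, though the other 2 were dim (means 5.60 and 5.57). Psmd12, another lid subunit, read 11.49, 11.55 and 11.52 in the GRK2+/- hearts and 11.62, 11.63 and 11.69 in the WT hearts (difference -0.13 ± 0.065, adjusted p = 0.41) without overlap. Psmd4, a ubiquitin receptor, read 10.94, 10.95 and 10.94 in the GRK2+/- hearts and 11.05, 11.01 and 11.14 in the WT hearts (difference -0.13 ± 0.067, adjusted p = 0.419), and its other 2 probe sets differed by -0.17 and -0.20. Psmd1, a scaffold of the base, was the fifth without overlap, with a difference of -0.055; its highest GRK2+/- heart and lowest WT heart differed only past the second decimal. The deubiquitinase Psmd14 itself read 10.80, 10.94 and 10.84 in the GRK2+/- hearts and 10.94, 10.90 and 10.98 in the WT hearts and overlapped (difference -0.078 ± 0.070). The remaining subunits were Psmd6 (-0.080), Psmd2 (-0.057), Psmd3 (-0.031), Psmd11 (-0.029) and Psmd13 (-0.017). The other probe set of Psmd6, nearly as bright (mean 11.40 against 11.56), gave 0.022.

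Averaged over the 11 non-ATPase genes, relative to the WT mean, the GRK2+/- hearts were at -0.098, -0.073 and -0.091 and the WT hearts at 0.025, -0.039 and 0.014. The 3 GRK2+/- hearts lay below the 3 WT hearts in this mean, and the group mean was -0.087 on the log2 scale. After centring 10 of 11 stayed below 0, with Psmd13 at 0.012, and the median was -0.049 against 0.010 for all genes. Leaving out 1 heart at a time gave medians from -0.099 to -0.057, with 10 or 11 of 11 below 0; without GRK2+/- heart 3 or without WT heart 1, 0 of the 11 passed an unadjusted p of 0.05. The median of the whole cap was -0.086 without WT heart 2. The beta-actin end difference, which also separated the groups, is given above; its part in this result was not tested.

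**Figure D2:**
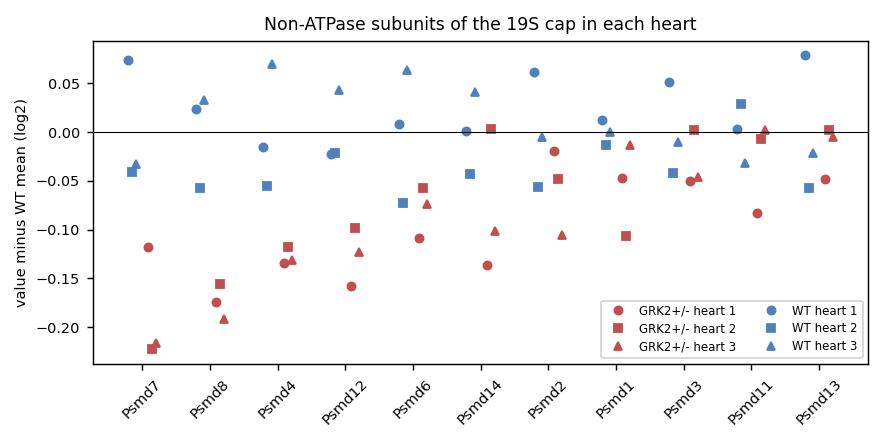
Value of each non-ATPase gene of the 19S cap in each heart minus the gene's WT mean (log2, vertical axis); blue marks are WT and red marks GRK2+/- hearts, with 1 shape per heart number. Red marks lie below all blue marks for Psmd7, Psmd8, Psmd4, Psmd12 and Psmd1 and mix with them for the other 6 genes.

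Of the 6 ATPases of the cap, which unfold substrates, 4 were below 0, with a median of -0.041, and 0 passed an unadjusted p of 0.05. Psmc1 read 10.81, 10.82 and 10.81 in the GRK2+/- hearts and 10.94, 10.92 and 10.92 in the WT hearts, and the groups did not overlap; the difference was -0.11 ± 0.063 (adjusted p = 0.456). Psmc4 lay on the other side and read 10.77, 10.82 and 10.78 in the GRK2+/- hearts and 10.80, 10.70 and 10.76 in the WT hearts (difference 0.035 ± 0.066, adjusted p = 0.843), with overlap; its other probe set gave -0.089. Psmc2, Psmc3, Psmc5 and Psmc6 differed by 0.0029, -0.033, -0.051 and -0.049.

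Assembly factors included the member with the smallest p. Psmd9, whose promoter is shown above, is a chaperone that helps to build the ATPase ring of the cap and is absent from the finished particle; it read 8.21, 8.17 and 8.37 in the GRK2+/- hearts and 8.48, 8.42 and 8.64 in the WT hearts. All GRK2+/- values lay below all WT values, and the difference was -0.27 ± 0.085 (1.2-fold lower, interval -0.46 to -0.075; adjusted p = 0.242). A second probe set of Psmd9 gave -0.23 ± 0.094, and the dim remaining one (mean 4.14) gave 0.089. The mean of the 3 probe sets differed by -0.13. The other base chaperones Psmd5 and Psmd10 differed by -0.035 ± 0.064 and 0.023 ± 0.10, with overlap. Of the core chaperones, which pair up to build the alpha ring, Psmg2 read 9.75, 9.56 and 9.74 in the GRK2+/- hearts and 9.94, 9.73 and 9.88 in the WT hearts; GRK2+/- hearts 1 and 3 lay just above the lowest WT heart (difference -0.16 ± 0.084, adjusted p = 0.406). Its partner Psmg1 differed by -0.11 ± 0.074. Psmg3 read 7.88, 8.07 and 8.14 in the GRK2+/- hearts and 7.90, 8.01 and 7.95 in the WT hearts (difference 0.082 ± 0.083, adjusted p = 0.678), on the other side from its partner Psmg4 (-0.10 ± 0.096), and both overlapped.

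Alternative caps and the inhibitor gave 3 of 4 genes below 0. Psme1, a subunit of the interferon-induced activator, read 11.91, 11.63 and 11.88 in the GRK2+/- hearts and 11.89, 11.72 and 11.83 in the WT hearts, a difference of -0.0076 ± 0.090 (adjusted p = 0.975) that was 0.021 after centring. The values of the groups interleaved, and GRK2+/- heart 2 was the lowest. Psme3, the nuclear activator, differed by -0.14 ± 0.075 without overlap, and its 3 probe sets disagreed, at -0.14, 0.12 and -0.23. Psme4, the activator that serves histone turnover, read 12.61, 12.54 and 12.53 in the GRK2+/- hearts and 12.58, 12.55 and 12.48 in the WT hearts (difference 0.030 ± 0.067, adjusted p = 0.871). Psmf1, named as an inhibitor of the 20S core, read 8.35, 8.40 and 8.46 in the GRK2+/- hearts and 8.51, 8.54 and 8.55 in the WT hearts. Here the groups did not overlap (difference -0.13 ± 0.066, adjusted p = 0.4), but its 3 dimmer probe sets were all above 0, from 0.026 to 0.13.

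The immunoproteasome subunits varied more from heart to heart than any other proteasome genes except Psma8. Psmb8 read 8.37, 8.56 and 8.84 in the GRK2+/- hearts and 9.14, 8.62 and 8.40 in the WT hearts. Psmb9 read 7.95, 8.01 and 8.59 in the GRK2+/- hearts and 8.83, 8.04 and 8.03 in the WT hearts. WT heart 1 was the highest of the 6 hearts in both genes and GRK2+/- heart 3 the next, with the other 4 hearts below them. The within-group SD was 0.41 for Psmb9, above that of 99.7% of all genes, and 0.32 for Psmb8, above 99.3%. Differences were -0.13 ± 0.18 for Psmb8 (adjusted p = 0.771) and -0.12 ± 0.22 for Psmb9 (adjusted p = 0.841), within the spread between hearts. Without WT heart 1 they were 0.079 and 0.14, on the other side of 0. Psmb10 read 9.60, 9.93 and 9.77 in the GRK2+/- hearts and 10.21, 9.99 and 9.91 in the WT hearts. GRK2+/- hearts 1 and 3 lay below all WT hearts and GRK2+/- heart 2 above WT heart 3. Its difference of -0.27 ± 0.10 (1.2-fold lower; interval -0.50 to -0.033; adjusted p = 0.31) was the lowest of all members. Psmb11, the cutting subunit of thymic epithelium, lay below the median gene and read 6.16, 6.26 and 6.18 in the GRK2+/- hearts and 6.24, 6.17 and 6.12 in the WT hearts (difference 0.024 ± 0.069, adjusted p = 0.907).

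Each inducible subunit was also set against the constitutive subunit it replaces, as the change of the pair's log2 ratio between genotypes. The change was -0.10 for Psmb8 over Psmb5, -0.15 for Psmb9 over Psmb6 and -0.22 for Psmb10 over Psmb7. Exact two-sided permutation tests over the hearts gave p = 0.7, 0.7 and 0.2 for these 3 pairs (0.7, 0.7 and 0.6 after Benjamini-Hochberg adjustment). With 3 hearts against 3 the smallest p such a test can give is 0.1. In the ratio of Psmb10 to Psmb7, 2 of 3 GRK2+/- hearts lay below all WT hearts.

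**Figure D3:**
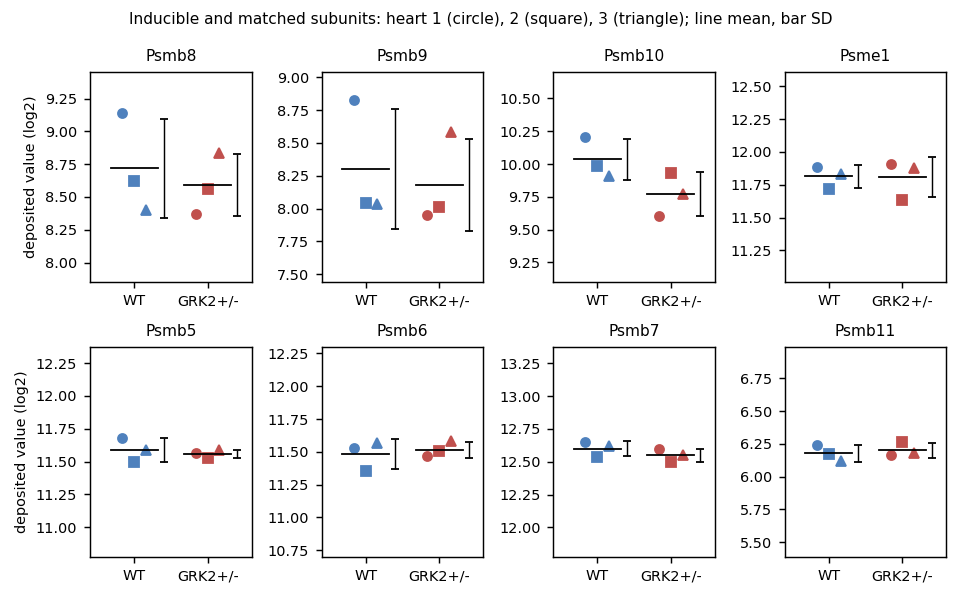
Deposited log2 value (vertical axis, the same span in each panel) in each heart for the inducible subunits Psmb8, Psmb9, Psmb10 and Psme1, the constitutive counterparts Psmb5, Psmb6 and Psmb7, and Psmb11; lines are group means and bars SD (n = 3). WT heart 1 (circle) and GRK2+/- heart 3 (triangle) stand high for Psmb8 and Psmb9, while the values of Psmb5, Psmb6 and Psmb7 stay close together.

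For other genes of antigen processing, the mean over 22 of 23 listed genes, relative to the WT mean, was 0.21, -0.034 and -0.18 in WT hearts 1, 2 and 3 and -0.099, -0.12 and 0.052 in GRK2+/- hearts 1, 2 and 3, so WT heart 1 was the highest here too and GRK2+/- heart 3 the next. The list's median difference was -0.079, with 14 of 22 below 0, 2 lower at an unadjusted p under 0.05 (7.7% of all genes) and 0 higher (6.3%). Erap1, which trims peptides for presentation, differed by -0.23 ± 0.082 and Ifngr1, a chain of the interferon gamma receptor, by -0.20 ± 0.076, both without overlap (adjusted p = 0.276 and 0.307). Ifngr2, the other receptor chain, differed by -0.18 ± 0.11. Tap1, the peptide transporter that neighbours Psmb9, read 7.66, 7.50 and 7.89 in the GRK2+/- hearts and 8.05, 7.98 and 7.38 in the WT hearts (difference -0.12 ± 0.17). Over all 23 leukocyte markers the order was another one, with GRK2+/- hearts 3 (0.29) and 2 (0.23) the highest and WT heart 1 at 0.067. Over the 21 markers other than S100a8 and S100a9, left out after their values were seen, GRK2+/- heart 3 (0.065) and WT heart 1 (0.062) were the highest. In that mean GRK2+/- heart 1 was at -0.048. The part of leukocyte RNA in these values was not tested.

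**Figure D4:**
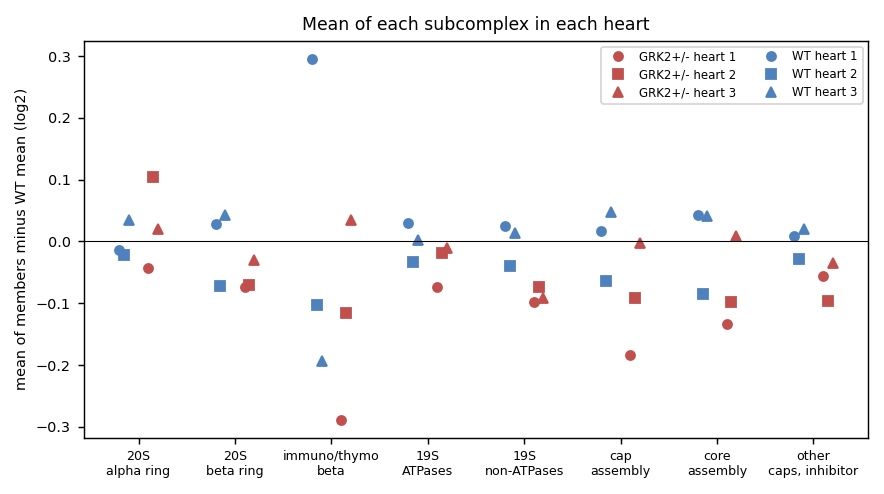
Mean of the members of each subcomplex in each heart minus the WT mean (log2, vertical axis), with WT hearts in blue and GRK2+/- hearts in red. The immunoproteasome and thymoproteasome genes spread from -0.29 to 0.30, the cap's non-ATPases only from -0.098 to 0.025, with all 3 red marks below the blue ones.

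Genes that act with the proteasome had median differences slightly above 0. Of 14 listed partners 12 were measured, with a median difference of 0.034, 8 above 0, 1 lower at an unadjusted p under 0.05 (7.7% of all genes) and 0 higher (6.3%). That gene was Usp14, a deubiquitinase that docks on the cap, at 9.81, 9.95 and 9.87 in the GRK2+/- hearts and 10.17, 10.07 and 9.95 in the WT hearts (difference -0.19 ± 0.079, adjusted p = 0.337). Psmc3ip, a recombination protein named for its partner Psmc3, differed by 0.20 ± 0.097, and Zfand5, an activator of the 26S particle in muscle wasting, by 0.13 ± 0.071 without overlap. Of the NRF1 pathway and the shuttles that deliver substrates, 17 of 20 genes were measured, with a median of 0.021, 2 higher (6.3% of all genes) and 0 lower (7.7%) at an unadjusted p under 0.05. The shuttle Ubqln2 read 10.01, 10.19 and 10.02 in the GRK2+/- hearts and 9.93, 9.75 and 9.74 in the WT hearts, without overlap (difference 0.27 ± 0.083, adjusted p = 0.23). Maf, a large Maf transcription factor, differed by 0.21 ± 0.085 and the ubiquitin ligase Syvn1 by 0.15 ± 0.075. Nfe2l1 itself read 10.67, 10.68 and 10.63 in the GRK2+/- hearts and 10.67, 10.41 and 10.57 in the WT hearts (difference 0.11 ± 0.079, adjusted p = 0.547), with overlap.

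Of 24 listed genes of ubiquitin supply and muscle ligases 17 were measured, with a median of 0.038, 1 higher (6.3% of all genes) and 3 lower (7.7%) at an unadjusted p under 0.05. Ube2d3, a ubiquitin-conjugating enzyme, read 11.57, 11.51 and 11.40 in the GRK2+/- hearts and 11.74, 11.61 and 11.84 in the WT hearts, without overlap (difference -0.24 ± 0.083, adjusted p = 0.266). Uba6, a ubiquitin-activating enzyme, differed by 0.21 ± 0.080 in the other direction, also without overlap, and the deubiquitinase Otub1 by -0.25 ± 0.11. The third lower gene, the muscle RING-finger protein Trim54, differed by -0.20 ± 0.089 with overlap (adjusted p = 0.348). The muscle ligases Fbxo32 and Trim63, which mark proteins for breakdown during wasting, differed by -0.12 ± 0.093 and 0.072 ± 0.073 (adjusted p = 0.576 and 0.681). No gene of these lists had an adjusted p under 0.05 in limma's fit over all genes.

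Probe sets of the same gene often disagreed. Of the 100 proteasome probe sets 71 were below 0 (57.4% of all probe sets), 10 were lower at an unadjusted p under 0.05 (7.4% of all probe sets), 1 was higher (5.44%), 17 were lower without overlap (11.2%), 3 higher without overlap (6.76%), and 0 passed the adjusted threshold (0% of all 45037; smallest adjusted p = 0.256). Among 26 members with several probe sets, all pointed the same way in 8 and not in 18. The 8 held Psmd11 (8 of 8 probe sets, -0.14 to -0.013), Psmd13 (4 of 4), Psmd4 and Psmd7 (3 of 3 each) and Psmd2, all of the cap's non-ATPases. The others were Psmb3, Psmc1 and Psmg2. The second probe set of Psmb8 was dim (mean 4.87), was the 1 higher at an unadjusted p under 0.05, and differed by 0.21 against -0.13 for the one used.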

How the data were processed

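Log2 values for 45101 Affymetrix probe sets in 6 hearts (3 GRK2+/-, 3 WT) were used as deposited by the authors, who made them with RMA, a method that corrects background, quantile-normalises arrays and summarises probes, and used limma, per the submitters' processing notes; the sources used here give neither versions nor whether all arrays entered 1 RMA run. No depth applies to arrays, and their number limits the precision. After 64 control probe sets were left out, 34945 of 45037 had 1 symbol in the platform annotation, 932 several, and 9160 were not listed. For each of 18193 genes the probe set with the highest mean was kept. limma 3.58.1 (lmFit, eBayes; R 4.3.3) compared the genotypes over all genes, with Benjamini-Hochberg adjustment at 0.05; the fit was tested on simulated data. The labels do not say that the hearts came from separate mice beyond their numbering, so p-values measure the spread between these samples. Same-numbered hearts did not deviate together (correlations -0.18, -0.0051 and 0.016), so the number was not used as a block.

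Values in every heart were given for Psmb5 to Psmb11, Psme1 and the 8 members with the smallest p in each direction; of each companion list the 3 genes with the smallest p were named. Other genes given heart by heart, and Nfe2l1, Tap1, Trim54, Fbxo32, Trim63 and the named marker genes, were added after their values were seen. Members and lists were chosen with earlier results of these data known. Alternatives were other array scalings, probe set rules, level filters, variance priors, array weights, the replicate number as a block and leaving out each heart. Protein sequences were not used here.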

Additional observations from a re-analysis of the deposited data

How the results depend on the processing

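No member had an adjusted p under 0.05 in limma under any of the alternatives run (smallest 0.177, for Psmd9 among genes at or above the median level), while 0 to 56 of all genes did (56 without GRK2+/- heart 1, 42 with a prior that follows the mean level); Psmd9 was below 0 in all 16. Of the results that answer a comparison, 312 values were classed as the same, 21 as moved and 4 as reversed. A count was the same when it stayed within a fixed ratio of the main one. A median was the same when it shifted by less than its SD between hearts, whatever its sign. The ratio of a pair was classed by its sign alone. Some medians classed as the same therefore changed sign. Without WT heart 1, that of Psmb8, Psmb9 and Psmb10 was 0.079 (-0.13 with all hearts). That of the 20S core was then 0.010 (-0.028 with all hearts). Of single genes, 314 kept direction and side of the threshold and 20 reversed. The cause was not tested.

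Members lower at an unadjusted p under 0.05 numbered 1 after centring (4.89% of all genes) and 1 to 7 with a heart left out (4.96% to 8.85%). Members higher numbered 0 to 1 with a heart left out, against 6.3% of all genes with all hearts. Lower without overlap were 6 members with the most variable probe set, a rule for which the share of all genes was not computed (11.6% with the brightest one). With a heart left out they were 11 to 21 (21 without WT heart 2, against 18.9% of all genes). Higher without overlap were 1 under quantile normalisation, 1 with the most variable probe set and 0 to 6 with a heart left out. The 6 were without GRK2+/- heart 1, where 16.1% of all genes were higher without overlap. That share was not computed for quantile normalisation or the most variable probe set (7.44% in the main fit). The cap's median was -0.026 after centring, -0.086 with the most variable probe set and -0.086 to -0.049 with a heart left out. The median of its non-ATPases was -0.049 after centring. That of the alpha ring was -0.019 for the mean of probe sets and -0.012 to 0.075 with a heart left out. The median of the other caps and inhibitor was -0.040 after centring, 0.0077 for the mean of probe sets and -0.014 for the most variable one.

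Signs turned as follows. Centring put Psmb5 at 0.00073 and Psme1 at 0.021. The mean of probe sets put Psmb8 at 0.040, Psmf1 at 0.027, Psma6 at -0.016, Psmc4 at -0.027 and Psmb8 over Psmb5 at 0.068. The most variable probe set put Psmf1 at 0.078, Psmg3 at -0.0017, Psmc4 at -0.089 and Psme4 at -0.020. With a heart left out, Psmb8 ran from -0.29 to 0.079, Psmb9 from -0.32 to 0.14, Psmb5 from -0.073 to 0.016 and Psmb9 over Psmb6 from -0.33 to 0.086, each above 0 only without WT heart 1. Psmb8 over Psmb5 ran from -0.26 to 0.063, above 0 without WT heart 1 or GRK2+/- heart 1. Psme1 ran from -0.059 to 0.079, Psmb6 from -0.030 to 0.076 (below 0 without WT heart 2), Psma6 from -0.0080 to 0.12 and Psmb11 from -0.0078 to 0.057. A filter at the median level left no value for Psma8 and Psmb11. With the replicate number as a block, 4 members were lower at an unadjusted p under 0.05 (6.83% of all genes); it ended no adjusted call, since there were none.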
